A study of Mus musculus with 2 samples.

Results

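The genes described here are the developmental transcription factors of the Hox, Pax, Lhx, Nkx, sine oculis (Six5 and its relatives), Dlx, Irx, Sox and Pou families. They were chosen by gene symbol, as mouse protein-coding genes whose symbol starts with one of these family names followed by a digit (for Hox, after the cluster letter). They number 122 of the 21896 protein-coding genes of the annotation. The choice was made with earlier results of these data known. The question was where a histone mark, H3K9bhb (histone H3 with β-hydroxybutyrate, a ketone body, attached to lysine 9), was called at these genes in CD8+ T cells. The series holds 1 ChIP library, made with an H3K9bhb antibody, and 1 input DNA library, whose signal was not analysed here. Both came from C57BL/6 mouse splenocytes of the OT-I line, which carry a transgenic T cell receptor for an ovalbumin peptide. The cells were activated for 3 days with peptide (200 ng/ml) and interleukin-2 (10 ng/ml), then held for 4 days in interleukin-15 (10 ng/ml) to make memory-like cells, and given β-hydroxybutyrate for 3 days. Untreated cells and repeat ChIP libraries were not analysed here. A peak therefore says nothing of a response to the treatment, and no difference below has a replicate check.

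Hox, Lhx, Nkx, Dlx, Irx, Pou and sine oculis proteins bind DNA through a homeodomain, to which Pou proteins add a POU-specific domain. Pax proteins use a paired domain, some with a homeodomain as well, and Sox proteins use an HMG box. Most of these genes lay down the body axis and the organs of the embryo. The Hox genes lie in 4 clusters, each an array of neighbouring genes numbered by paralogue group. In cells that do not use them, such genes are classic targets of Polycomb repression at CpG-rich promoters. A smaller number act in blood cells, among them Pou2f1 (Oct-1), Pou2f2 (Oct-2), Pax5, the factor of B cell identity, Sox4, which acts in early lymphocytes, and Hoxa9 and Hoxb4, known from blood stem cells.

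A gene counted as a carrier of the mark if a summit, the highest point of a called peak, fell within its span or up to 5 kb from it. By this count 26 of the 122 genes had a peak (21.3%, 95% exact interval 14.4 to 29.6), against 11.4% of all protein-coding genes (2488 of 21896). The peaks behind the 26 genes numbered 24, since neighbouring Hox genes shared summits. The carriers were 11 Hox genes, 6 Nkx genes, 4 Pou genes, 2 Lhx genes and 1 gene each of the Pax and Dlx families and of the sine oculis family. All 19 Sox genes, all 6 Irx genes and all 9 genes of the HoxC cluster were without one. Among the 103 members other than Sox the share was 25.2% (17.2 to 34.8). Intervals cover counting error only and treat genes as independent, which neighbours in a cluster are not. The differences between families were not tested.

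**Figure D1:**
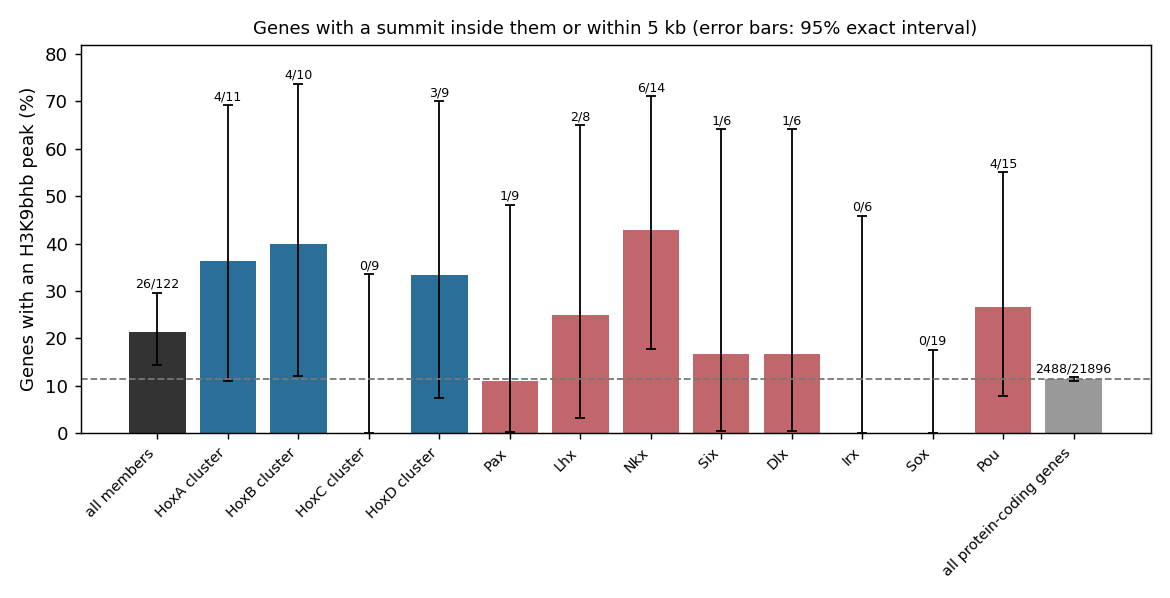
Share of genes with an H3K9bhb summit inside them or within 5 kb (%), for all 122 members, each family and all protein-coding genes, from 1 ChIP library; error bars are 95% exact intervals, numbers are genes with a peak over genes, and the dashed line is the share of all protein-coding genes (11.4%). The families with a peak lie above the line, except Pax (11.1%, at the line), and HoxC, Irx and Sox have no gene with a peak.

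The Hox genes carried peaks in 3 of their 4 clusters. The HoxA cluster on chromosome 6 had 4 of 11 genes with a peak (36.4%, 10.9 to 69.2), the HoxB cluster on chromosome 11 had 4 of 10 (95% interval 12.2% to 73.8%) and the HoxD cluster on chromosome 2 had 3 of 9 (33.3%, 7.49 to 70.1). The HoxC cluster on chromosome 15 had 0 of 9, so that up to 33.3% remains possible (3 counts over the 9 genes). The nearest summit to it lay 132.3 kb away, beside Smug1. With so few genes the 4 intervals overlap, so a lower share in HoxC was not shown.

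Counted as peaks, HoxA held 3 in a span of 105.5 kb (2.84 per 100 kb), HoxB held 3 in 173.9 kb (1.72 per 100 kb) and HoxD held 2 in 96.9 kb (2.06 per 100 kb). HoxC held none in 115.7 kb. The nuclear genome as a whole had 0.0816 peaks per 100 kb, but gene-rich stretches have more. Of 120 bins of 100 kb with 8 or more protein-coding genes, 30.0% held at least 1 peak, 8.33% at least 2 and 0.833% at least 3. Outside the cluster's own span, the nearest summit was 631.3 kb away for HoxA and 421.0 kb away for HoxB. For HoxD it was 10.3 kb away and lay in Evx2 (score 4.26), the homeobox neighbour of that cluster.

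In HoxA, summits lay at Hoxa3, Hoxa7 and Hoxa10. The Hoxa3 summit (chr6:52213203, mm10) was 136 bp upstream of the start of Hoxa3, a gene of the pharyngeal arches and thymus, and inside the long non-coding RNA gene Hoxaas3. The Hoxa7 summit (chr6:52217632) was 941 bp downstream of that gene's start. Both scored 3.17, on the caller's scale of −log10 p or q. The third, inside Hoxa10 (chr6:52234137), a factor of the posterior trunk and of blood progenitors, scored 2.62 and lay 802 bp downstream of one of its 2 listed starts. Hoxa6 was counted only because the Hoxa3 summit lay 4531 bp outside it. Hoxa9, with a summit 5465 bp away, fell just beyond the limit, as did Hoxa11 (7968 bp) and Hoxa5 (8616 bp).

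In HoxB, summits lay at Hoxb9, at Hoxb8 and inside Hoxb3. The Hoxb9 summit (chr11:96271735) was 405 bp inside the lower-coordinate end of the gene and scored 7.95, the highest of the 4 clusters. The Hoxb8 summit (chr11:96284495), at a gene used to immortalise myeloid progenitors in culture, scored 6.63. It lay 830 bp inside the higher-coordinate end of Hoxb8, which is its transcript end, and 1109 bp outside Hoxb7, so both genes were counted from 1 peak. The Hoxb3 summit (chr11:96332938) scored 4.16 and lay 14992 bp from the nearer end of that gene. Hoxb4, which the span of Hoxb3 encloses, was 11.3 kb from it and had no peak. Hoxb6 missed the limit, with a summit 8319 bp away.

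In HoxD, summits lay at Hoxd9 and Hoxd3. The Hoxd9 summit (chr2:74698078) was 315 bp downstream of the start and scored 5.41; the same peak counted Hoxd10, 2972 bp away, while Hoxd8, 6537 bp away, was not counted. The Hoxd3 summit (chr2:74746713) scored 5.63. It lay 1558 bp inside the higher-coordinate end, which is the transcript end, and 1709 bp from the long non-coding RNA gene Haglr. The annotated spans of Hoxa3, Hoxb3 and Hoxd3 are long, at 44009, 40830 and 36279 bp, and run over neighbouring Hox genes. A summit inside them thus has more room than at other Hox genes, though the Hoxa3 summit lay 136 bp outside the span of that gene.

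**Figure D2:**
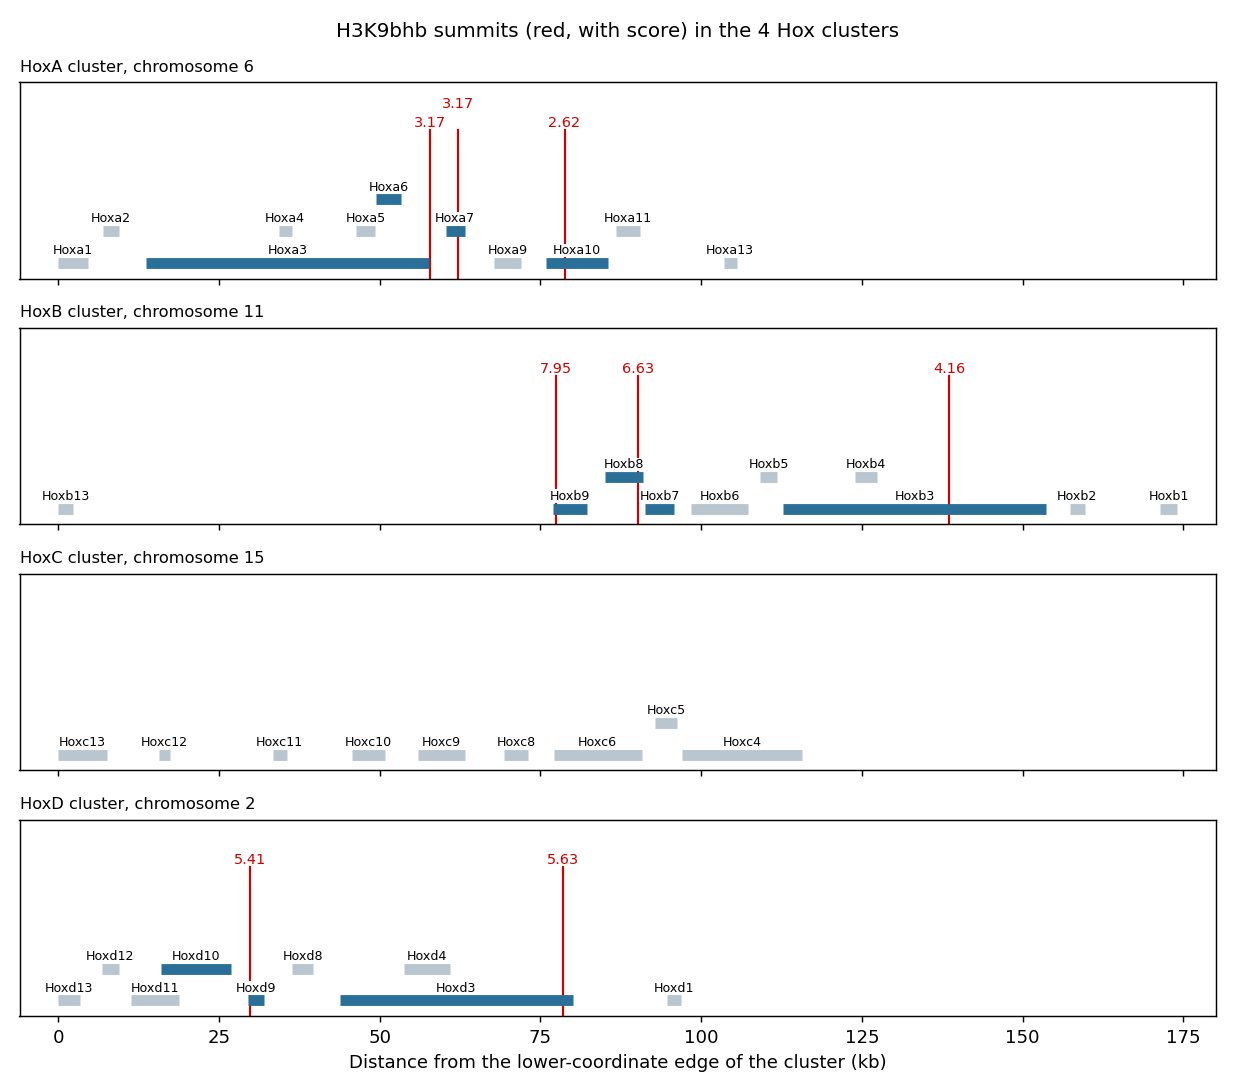
The 4 Hox clusters to one scale, with distance from the lower-coordinate edge of each cluster in kb along the x axis; bars are gene spans (dark, gene counted as having a peak; light, not counted) and red lines are H3K9bhb summits labelled with their scores. HoxA and HoxB hold 3 summits each, HoxD holds 2 and HoxC holds none.

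By position along the clusters, the carriers fell in paralogue groups 3 and 6 to 10. All 3 Hox genes of paralogue group 3 had a peak, as did 4 of 8 genes of groups 6 to 8 and 4 of 7 genes of groups 9 and 10. None of the 5 genes of groups 1 and 2, none of the 7 genes of groups 4 and 5 and none of the 9 genes of groups 11 to 13 had one. The share over all protein-coding genes was 11.4%. The 11 Hox carriers rest on 8 peaks, and group 6 rests on Hoxa6 alone, counted from the Hoxa3 summit. With so few genes and peaks, a pattern by paralogue group was not tested. When each peak was given only to the protein-coding gene whose end was nearest, 7 Hox genes were left (17.9%, against 9.26% of all protein-coding genes). They were Hoxa3, Hoxa7, Hoxa10, Hoxb8, Hoxb9, Hoxd3 and Hoxd9. Windows of 2 kb at gene ends alone also gave 7 Hox genes, and 20 members in all (16.4%), against 9.4% of all protein-coding genes.

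Outside the Hox clusters 15 of 83 genes had a peak (18.1%, 10.5 to 28), and each of the 15 was itself the gene with the nearest end to a summit. The Nkx family had 6 of 14 (42.9%, 17.7 to 71.1). In the top 50% of peaks it had 1 of 14 (7.14%), against 5.76% of all protein-coding genes, and within 2 kb of a listed start 2 of 11 (18.2%), against 9.58%. Nkx3-2, a factor of cartilage and spleen development, was the one member with a pair of its own peaks. A summit at chr5:41762080 scored 7.996, the highest of the whole set, and lay 597 bp inside the transcript end. Another at chr5:41764126 scored 4.26 and lay 94 bp downstream of the start, inside the predicted long non-coding RNA gene Gm46910.

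Nkx carriers also included Nkx2-3, Nkx2-4, Nkx2-5 and Nkx6-3. Nkx2-4, a close relative of the thyroid and forebrain factor Nkx2-1, had a summit (4.06) 765 bp downstream of its start. Nkx2-5, a heart factor, had one (3.50) 496 bp from its transcript end, and Nkx2-3, needed in the stroma and vessels of spleen and gut, had one (3.06) 1162 bp from its transcript end. Nkx6-3, a stomach factor, had one (3.50) 1121 bp inside its higher-coordinate end. Nkx1-1 was 9131 bp from a summit and was not counted. The 6 carriers lay on 6 chromosomes, so none of them shared a peak with another.

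Of the 15 Pou genes, 4 had a peak (26.7%, 7.79 to 55.1). Both octamer-binding factors known from lymphocytes, Pou2f1 and Pou2f2, were among them. Pou2f1, the widely expressed Oct-1, had a summit (5.63) at chr1:166003400, 766 bp upstream of the nearest of its 3 listed starts. Pou2f2 (Oct-2), best known from B cells, had a summit (5.63) at chr7:25179844, 953 bp inside its higher-coordinate end. That is the upstream end of this minus-strand gene, and the summit was 47384 bp upstream of its 1 listed start. Pou4f2, a factor of retinal ganglion cells, had one (4.22) 354 bp downstream of its start, and Pou3f2, a neural factor, had one (3.50) 310 bp downstream. Pou6f1 had no summit within 36.6 kb.

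The smaller families gave single carriers or pairs. Lhx2, a factor of forebrain and hair follicle, had a summit (3.51) 365 bp downstream of one of its 2 listed starts, though 12402 bp inside the annotated gene. Lhx6, a factor of cortical interneurons, had one (2.12) 361 bp downstream of the nearest of its 3 listed starts. Together they made 2 of 8 Lhx genes (25%). Six5, next to Dmpk, had one (5.08) 369 bp downstream of its start, the 1 carrier of 6 in its family. Dlx3, a skin and placenta factor, had one (3.17) 1348 bp inside its lower-coordinate end, the 1 carrier of 6 Dlx genes. Pax7, which marks muscle stem cells, had one (4.54) 11336 bp downstream of its start, the 1 carrier of 9 Pax genes. Pax5 had none, and its nearest summit lay 301.5 kb away, beside Zbtb5.

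No Sox gene had a peak. A count of 0 of 19 allows up to 15.8% (3 counts over the 19 genes), and the exact interval reaches 17.6%, which includes the 11.4% of all protein-coding genes. The 19 genes lie on 14 chromosomes, and their distance to the nearest summit ranged from 8.84 kb (Sox18, where the summit was 186 bp from an end of Tcea2) to 3185.5 kb (Sox30), with a median of 309.6 kb. Sox4, which acts in lymphocyte development, was 1182.8 kb from the nearest summit, and Sox13, known from γδ T cells, was 18.3 kb from one beside Etnk2. The 6 Irx genes, in groups on 2 chromosomes, were at least 197.8 kb from any summit.

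Genes were also compared by length, since a longer gene has more room for a summit. The median span of members was 5223 bp, against 17149 bp for all protein-coding genes. Among genes of up to 10 kb, 17 of 88 members had a peak (19.3%, 11.7 to 29.1), against 434 of 7850 other protein-coding genes (5.53%, 5.03 to 6.06). The share was 7 of 33 for Hox genes (21.2%) and 10 of 55 for the other members (18.2%). In the classes above 10 kb counts were small. Of members of 10 to 25 kb, 2 of 14 had a peak (14.3%), against 11.5% of other genes. From 25 to 50 kb it was 4 of 8, among them Hoxa3, Hoxb3 and Hoxd3, against 15.1%. From 50 to 100 kb it was 2 of 7 (28.6%), against 18.5%, and over 100 kb 1 of 5, against 16.5%. The 19 Sox genes had a median span of 4794 bp.

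These peaks had a lower median score than the list, a difference that was not tested. Their median was 4.19 (quartiles 3.42 and 5.47, range 2.12 to 7.996), against 5.04 for all 2204 peaks (quartiles 3.33 and 6.78). Of the 24 peaks, 8 were among the 50% of peaks with the highest scores (33.3%, 15.6 to 55.3) and 2, at Hoxb9 and Nkx3-2, among the top 25% (8.33%, 1.03 to 27). Counting only the top 50% of peaks left 10 of 122 members (8.20%), against 5.76% of all protein-coding genes. These were 6 of 39 Hox genes (15.4%), with 0 of 11 in HoxA, and 4 of 83 other members (4.82%). Counting only the top 25% left 2 of 122 (1.64%), against 3.04% of all, so the higher share of members did not hold there, and outside the Hox clusters it did not hold in the top 50% either. Of the Hox clusters HoxA had the lowest scores (2.62 to 3.17), HoxD peaks scored 5.41 and 5.63, and HoxB peaks ran from 4.16 to 7.95. Scores are coarse: 56 peaks of the list share the value 3.17 of Hoxa3, Hoxa7 and Dlx3.

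**Figure D3:**
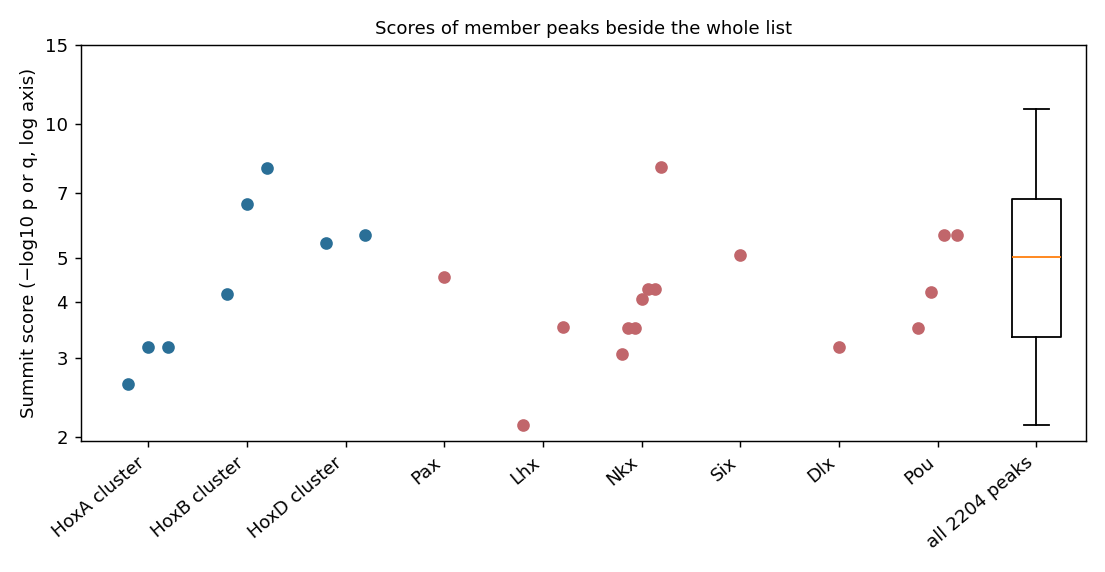
Scores (−log10 p or q, log axis) of the 24 peaks at members, 1 point per peak by family (a shared Hox peak is drawn once), beside all 2204 peaks of the list (box: quartiles and median; whiskers: 5th to 95th percentile). The points for Nkx3-2 (7.996) and Hoxb9 (7.95) lie above the upper quartile of the list (6.78), and the 3 HoxA peaks lie below its lower quartile (3.33).

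The printed promoters below belong to members with a summit in or near the window, 1 or a pair per family, and show the kind of sequence these peaks sat beside. Each is the RefSeq window of GRCm38.p6 from 250 bases before to 50 bases after the transcription start, 5′ to 3′ on the gene's strand, with CpG dinucleotides in capitals.
Hoxa3 (chr6:52213018-52213317, minus strand): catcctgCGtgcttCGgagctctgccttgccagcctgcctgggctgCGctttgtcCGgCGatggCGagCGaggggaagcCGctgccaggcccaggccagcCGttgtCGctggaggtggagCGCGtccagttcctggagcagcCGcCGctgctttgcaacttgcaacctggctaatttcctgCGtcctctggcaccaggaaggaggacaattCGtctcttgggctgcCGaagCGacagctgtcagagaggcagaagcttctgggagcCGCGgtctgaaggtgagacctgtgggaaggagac
Hoxd9 (chr2:74697513-74697812, plus strand): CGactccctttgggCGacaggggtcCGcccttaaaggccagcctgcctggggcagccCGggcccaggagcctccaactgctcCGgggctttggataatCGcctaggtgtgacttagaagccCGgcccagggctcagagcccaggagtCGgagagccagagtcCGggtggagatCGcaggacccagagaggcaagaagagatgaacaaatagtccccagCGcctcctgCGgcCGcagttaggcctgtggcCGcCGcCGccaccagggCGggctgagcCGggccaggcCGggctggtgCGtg
Nkx3-2 (chr5:41764171-41764470, minus strand): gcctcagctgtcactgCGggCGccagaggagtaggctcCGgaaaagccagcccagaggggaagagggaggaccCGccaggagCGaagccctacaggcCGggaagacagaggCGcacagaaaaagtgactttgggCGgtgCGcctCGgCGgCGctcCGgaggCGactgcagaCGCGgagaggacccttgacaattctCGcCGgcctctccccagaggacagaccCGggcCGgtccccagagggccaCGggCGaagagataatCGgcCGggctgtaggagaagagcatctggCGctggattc
Pou4f2 (chr8:78436598-78436897, minus strand): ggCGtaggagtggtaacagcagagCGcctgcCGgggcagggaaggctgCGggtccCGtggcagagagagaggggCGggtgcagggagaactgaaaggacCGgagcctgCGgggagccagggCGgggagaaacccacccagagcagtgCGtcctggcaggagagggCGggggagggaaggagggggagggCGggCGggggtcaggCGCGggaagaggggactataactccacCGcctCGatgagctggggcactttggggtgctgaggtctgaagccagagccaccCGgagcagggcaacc
Lhx2 (chr2:38351058-38351357, plus strand): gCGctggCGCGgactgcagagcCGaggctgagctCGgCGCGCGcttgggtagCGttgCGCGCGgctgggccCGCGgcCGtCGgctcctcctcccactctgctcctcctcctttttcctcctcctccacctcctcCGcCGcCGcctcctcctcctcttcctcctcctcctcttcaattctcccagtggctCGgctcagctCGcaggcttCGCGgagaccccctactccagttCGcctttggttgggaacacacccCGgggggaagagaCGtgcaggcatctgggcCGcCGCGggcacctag
Six5 (chr7:19094294-19094593, plus strand): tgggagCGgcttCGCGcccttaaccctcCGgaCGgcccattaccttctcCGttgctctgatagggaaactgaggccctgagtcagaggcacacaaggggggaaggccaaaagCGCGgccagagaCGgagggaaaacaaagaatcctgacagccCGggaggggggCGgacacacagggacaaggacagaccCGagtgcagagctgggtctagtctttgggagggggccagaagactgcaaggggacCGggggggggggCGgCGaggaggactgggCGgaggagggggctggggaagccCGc

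Of these 6 windows, that of Hoxa3 itself contains the summit, and in the other 5 the summit lay 94 to 369 bp downstream of the start. They hold between 17 (Six5) and 29 (Lhx2) CpG in 300 bases, with 20 each in Hoxa3 and Hoxd9, 25 in Nkx3-2 and 18 in Pou4f2. Their GC content runs from 64.0% (Hoxa3) to 69.7% (Pou4f2). The median over all 17491 protein-coding genes with a listed window was 13 CpG and 56.3% GC. Over the 2012 other protein-coding genes with a peak it was 24 CpG and 64.3% GC.

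Members with and without a peak had promoters of similar median CpG content. Over the 81 members with a listed window, the median was 17.5 CpG per 300 bases in the 20 with a peak (quartiles 14.25 and 22.5) and 18 in the 61 without (11 and 28). Among other protein-coding genes the median was 24 in the 2012 with a peak and 11 in the 15398 without. The Sox genes, none with a peak, had a median of 22 in the 13 with a window. Of members with 10 or more CpG 18 of 66 had a peak (27.3%), against 18.0% of other genes with as many, and among the 10 Sox genes of that class 0 had one. Under 10 CpG the shares were 2 of 15 members (13.3%) and 2.74% of other genes. One HoxC gene has a listed window, so that cluster could not be compared.

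**Figure D4:**
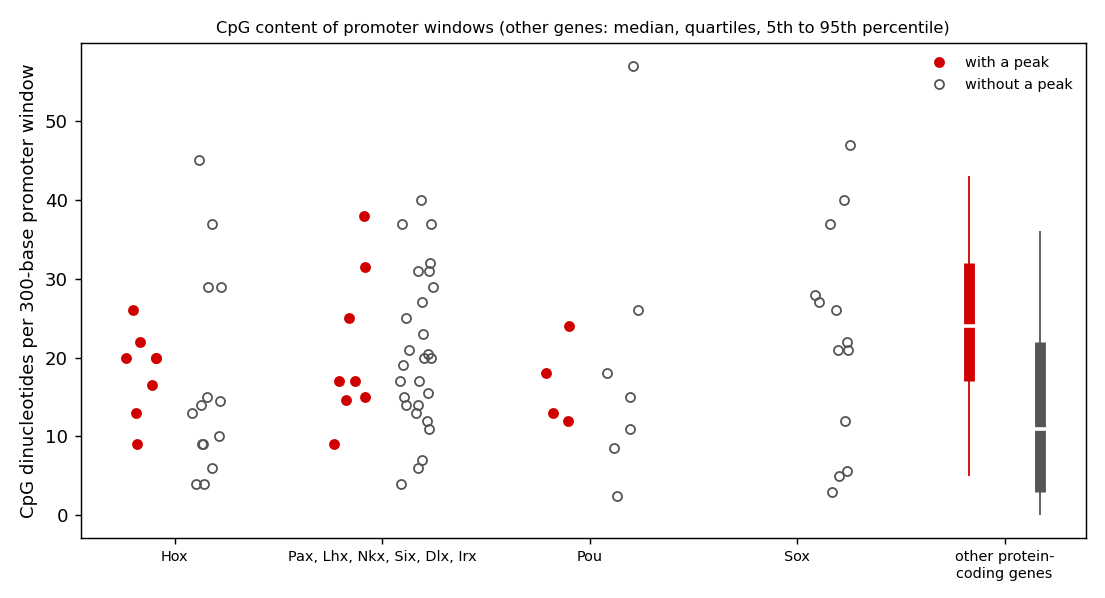
CpG dinucleotides per 300-base promoter window (mean over the listed windows of a gene) for members with a peak (filled) and without (open), by family, and for other protein-coding genes with and without a peak (thick bar: quartiles; thin line: 5th to 95th percentile; white mark: median). Members with a peak run from 9 to 38 and members without from 2.5 to 57. Their medians over all families are 17.5 and 18, but 20 and 13.5 for Hox genes. Other protein-coding genes have medians of 24 and 11.

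Among short motifs, searched as exact letters on both strands, the GC box GGGCGG was in at least 1 listed window of 15 of 20 members with a peak (75%), 37 of 61 without (60.7%) and 49.2% of all protein-coding genes with a window. The CCAAT box (CCAAT) was in 9 of 20 (45%), 34 of 61 (55.7%) and 42.3%. The TATA box (TATAAA) was in 4 of 20, 5 of 61 (8.20%) and 14.8%. In the 2012 other protein-coding genes with a peak the shares were 77.0% (GC box), 40.8% (CCAAT box) and 7.90% (TATA box). The GC box share of members with a peak was thus close to that of other genes with a peak. Of the windows printed above, those of Hoxd9, Nkx3-2, Pou4f2 and Six5 hold the GC box. These matches describe the windows and are not binding sites.

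The next comparison set summits against transcription starts; its differences were not tested. Of the 20 carriers with a listed start, 12 had a summit within 2 kb of one (60.0%), against 82.7% of 2012 other genes with a peak. The median position was 367 bp downstream of the start (quartiles 256 and 2405) for members and 121.5 bp downstream (-53.25 and 316.25) for the other genes. The 8 carriers without a summit that close were Hoxa6 and Hoxd10, counted from a neighbour's peak, Hoxb8, Hoxd3, Nkx2-3, Nkx2-5, Pax7 and Pou2f2. The Pou2f2 summit was 953 bp inside the upstream end of the annotated gene, which is not a listed start. Counted by peaks, 20 of 24 (83.3%, 62.6 to 95.3) had a protein-coding gene's end within 2 kb, against 82.4% of all peaks.

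Where the gene with the nearest end had a known strand, 11 of 16 member peaks within 2 kb were nearer to its start than to its transcript end (68.8%, 41.3 to 89.0). For other genes it was 1404 of 1467 (95.7%, 94.5 to 96.7). The 5 peaks nearer a transcript end were those of Hoxb8, Hoxd3, Nkx2-3, Nkx2-5 and one of Nkx3-2. Nkx3-2, Nkx2-3, Hoxb8 and Nkx2-5 are short genes of 2738, 3568, 5925 and 6325 bp, in which both ends lie close together, while Hoxd3 spans 36279 bp. Whether gene length bears on the lower share was not tested. When only summits within 2 kb of a listed start were counted, 12 of 81 members had one (14.8%), against 9.58% of all protein-coding genes with a listed start.

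**Figure D5:**
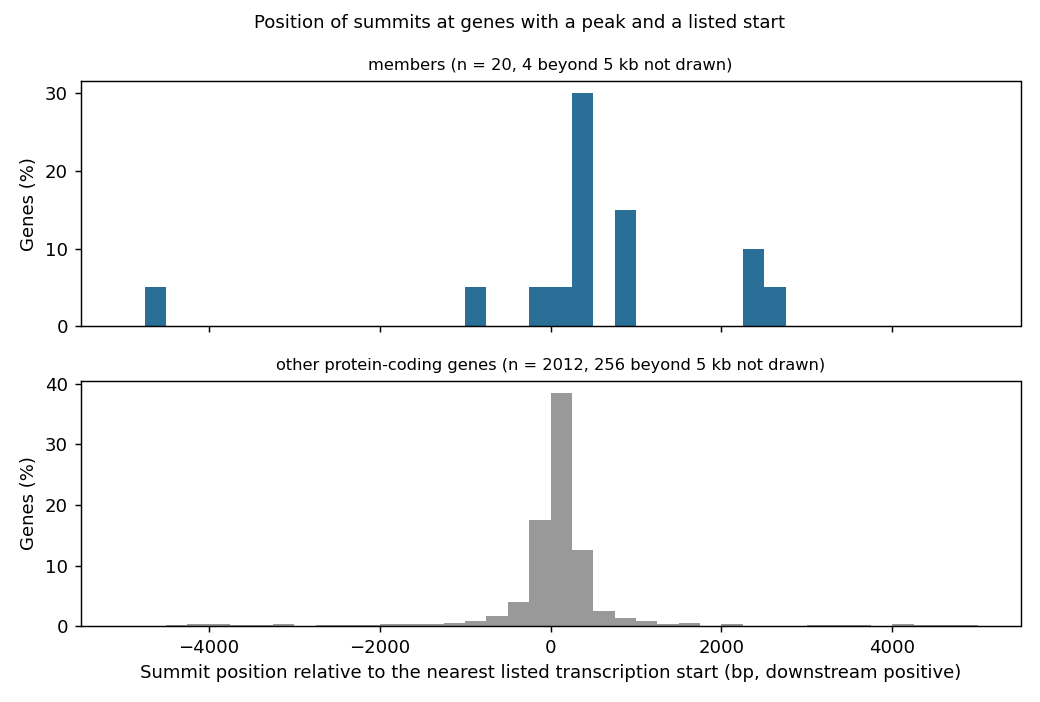
Position of the summit nearest to a listed transcription start (bp, downstream positive, 250 bp bins; y axis, % of genes) for the 20 members and the 2012 other protein-coding genes with a peak and a listed start; summits beyond 5 kb are not drawn. Other genes pile up at the start, with a median of 121.5 bp, and members spread downstream, with a median of 367 bp.

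Related gene lists gave the surroundings of the set, each beside the 11.4% of all protein-coding genes. Other homeobox families had a peak at 15 of 62 genes (24.2%, 14.2 to 36.7). The highest scores were those of Tlx2, Hmx2, Hmx3 and Zfhx3 (7.89 each, that of Hmx2 from a summit nearer to Hmx3), followed by Zfhx4 (6.46) and Onecut1 (5.63), a liver and pancreas factor. HMG box genes other than Sox had one at 5 of 17 (29.4%, 10.3 to 56.0): Cic (10.5), a repressor downstream of receptor kinases, Hmgb1 (7.62), an abundant chromatin protein, Tcf7l2 (4.22) and Tcf7l1 (2.77), which act in Wnt signalling, and Bbx (3.66). That list and the Sox family share the DNA-binding fold. The difference between 5 of 17 and 0 of 19 was not tested, and the genes were not matched for length. The 5 carriers span 6356 (Hmgb1), 26502 (Cic), 162675 (Tcf7l1), 191863 (Tcf7l2) and 240623 bp (Bbx), and the Sox median is 4794 bp.

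The next lists hold chromatin regulators of Hox genes and partners of these factors. Polycomb group genes had a peak at 9 of 31 (29.0%, 14.2 to 48.0). The highest were Bmi1 (8.97), a core subunit of Polycomb complex PRC1 whose summit was nearer to Gm46725, Pcgf5 (8.07), a Bmi1 relative, Rbbp4 (7.70), a histone-binding subunit of PRC2, Ezh1 (7.01), an H3K27 methyltransferase, and Cbx8 (6.60), a chromodomain subunit. Kdm2b, which binds CpG-rich DNA, and Cbx6 followed with 4.54 each. Trithorax genes and H3K27 demethylases had 1 of 10 (0.253% to 44.5%), Dpy30 (6.63), a subunit shared by H3K4 methyltransferases. Hox cofactors of the Pbx, Meis and Pknox families had 1 of 9, Pbx3 (4.29), and 7 Eya, Dach and Oct-coactivator genes had none, which allows up to 42.9% (3 counts over the 7 genes).

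A peak list cannot check the label of the cells as expression would. Of 22 CD8 T cell marker genes 2 had a peak (9.09%, 1.12 to 29.2), near the 11.4% of all protein-coding genes. They were Bcl11b (7.89) and Eomes (3.17), and the other 20, including Cd8a, Cd8b1 and Cd3e, had none. Markers of B cells had 1 of 12 (0.211% to 38.5%), which was Pou2f2, and those of NK cells had 1 of 8 (0.316% to 52.7%), which was Eomes. Those of myeloid cells (12) and CD4 helper and regulatory T cells (8) had none, which allows up to 25% and 37.5%. With so few genes, none of these lists was shown to differ from all protein-coding genes. Whether other spleen cells remained in the culture, and their part in the peaks at these genes, was not tested.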

How the data were processed

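H3K9bhb ChIP-seq was done on 1 library, with 1 input library, per the labels; the labels give 70 M reads for each, paired, of 150 bp. The submitters' processing notes name Trimmomatic 0.39, FastQC 0.11.8, Bowtie2 2.3.5, MACS2 2.1.2 and build mm10. For caller settings, use of the input and read filters, nothing is given in the sources used here. Each deposited row is a 1 bp summit with a −log10 p or q value from the authors, called the score; the files do not say which. Read depth at a peak is unknown. The list holds 2315 summits of 2204 peaks.

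Summits were set against RefSeq genes of GRCm38.p6, the assembly of mm10. A gene had a peak when any summit lay inside it or within 5 kb. RefSeq promoter windows gave strand and starts for 17491 of 21896 protein-coding genes and for 81 of 122 members; starts not listed were not used. Intervals are exact (Clopper-Pearson, 95%). With 1 ChIP library no p-value is given. Members and lists were chosen with earlier results of these data known. Members with a peak are named (a few enter the counts only and are not reported here), with members best known in lymphocytes, members with a summit up to 10 kb away and, of each other list, up to 6 carriers by score. Promoters were printed for members with a summit in or near the window. Counting functions were tested on simulated summits. Software was Python 3.11.15, pandas 2.3.3, numpy 2.4.6, matplotlib 3.10.9 and scipy 1.17.1.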

Additional observations from a re-analysis of the deposited data

How the results depend on the processing

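The 26 members with a peak (11 Hox genes and 15 others) stayed within 1.5 times of that count with 2 kb and 10 kb flanks and with peaks within 10 kb merged. Taking the highest-scoring summit of each peak, or leaving out peaks scoring over 20, could not change that count. The 24 member peaks hold 24 summits, and their highest score was 7.996. The Hox count was 7 with windows of 2 kb at gene ends alone and 7 when a peak counted only for the gene with the nearest end. Within 2 kb of a listed start the counts were 12 members, 4 Hox genes and 8 others, where fewer genes were tested. In the top 50% of peaks they were 10, 6 and 4, and in the top 25% they were 2, 1 and 1, where fewer peaks were used. With 10 kb flanks 1 Sox gene (Sox18) and no HoxC gene was counted. The other 9 alternatives can only take genes away from the main count. They could not add a Sox or HoxC gene, so finding none there is no further check. The depth behind single peaks is unknown, and small families limit every share. No paired analysis was possible because there is 1 ChIP library.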
